A study of Mus musculus with 16 samples.

Results

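Transcripts of 7 genes of fat cells were read in RNA from mouse stomach. The genes were Adipoq, Cidec, Plin1, Lep, Retn, Cfd and Car3, taken by symbol from a table of 24964 genes and chosen as a reading of how much fat tissue each biopsy carried. All 7 were in the table, all 7 passed the filter on low counts that left 15385 genes for testing, and none was at 0 in any of the 16 libraries. The tissue was a 4 mm biopsy of the corpus, taken at its lesser curvature from female mice 8 weeks old. The corpus is the acid-secreting body of the stomach, and its outer wall is covered by a serosa to which fat and omentum attach.

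The libraries fell into 4 groups of 4. WT-S and WT-A came from C57BL/6 mice. TTP-S and TTP-A came from TTPΔARE mice, a congenic strain on C57BL/6 whose allele of Zfp36, the gene of the RNA-binding protein tristetraprolin (TTP), lacks the AU-rich element by which the transcript is kept low. A stands for adrenalectomy (ADX), the removal of the adrenal glands, with the gastric inflammation that followed. For S, the treatment label gives spasmolytic polypeptide-expressing metaplasia (SPEM), in which injured corpus glands take on mucous cells. The labels leave unstated whether S mice had surgery, and S serves here as a group name alone. The comparisons address whether fat-cell transcripts differed after loss of the adrenal steroids, between genotypes, and between the genotypes in the response. The labels do not say that libraries of a group came from separate animals, so p-values measure the spread between these samples, which may be technical.

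Total counts ranged from 17453930 to 25849472 per library. Zfp36 had a mean of 62.0 ± 4.73 CPM for WT-S and 72.0 ± 11.9 for WT-A, beside 122 ± 6.11 for TTP-S and 123 ± 9.54 for TTP-A (SD, 4 libraries each), where CPM is the count relative to the scaled library total, times 1e6. It was higher in TTPΔARE mice in both conditions (edgeR, adjusted p = 0.00044 in S and 0.00159 in A). Summed transcripts of 6 parietal and chief cell genes, which mark the corpus, lay between 62300 and 169000 CPM. Of these 6, 4 were called lower in WT-A against WT-S by edgeR (8.99% of all genes), with a median log2 fold change of −0.57, and 5 without the pair of libraries described next (5.75%). In TTP-A against TTP-S 0 of 6 were called, with 1 at an unadjusted p under 0.05 and a median of −0.15. WT-A replicates 3 and 4 stood apart. Their deviations from the gene medians followed transcript GC content (Spearman rho 0.716 and 0.738 over 11493 genes), while the largest absolute rho of the other libraries was 0.302. Comparisons of the 7 genes with WT-A are therefore also given in the 14 libraries without this pair.

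White fat cells store triglyceride in a single large droplet coated by perilipins, release fatty acids by lipolysis when insulin is low, and secrete hormones called adipokines. Glucocorticoids from the adrenal cortex act on fat cells, where they promote differentiation and both storage and release of lipid. In the mouse, fat lies against the stomach in the omentum and mesentery, so that a punch through the wall can carry some of it.

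Of the secreted products, Adipoq encodes adiponectin, an insulin-sensitizing hormone made by mature fat cells (GRCm38, chr16:23146536-23158028, plus strand). Lep encodes leptin, which signals fat stores to the hypothalamus and is also made in the gastric mucosa (chr6:29060220-29073877, plus strand). Retn encodes resistin, an adipokine that in mice comes mainly from white fat cells (chr8:3655770-3660110, plus strand). Cfd encodes complement factor D, also named adipsin, the serine protease of the alternative complement pathway (chr10:79890853-79892655, plus strand). Of the proteins of the droplet, Plin1 encodes perilipin 1, which coats the droplet and gates lipolysis (chr7:79720218-79732903, minus strand). Cidec encodes a protein, also named FSP27, that fuses small droplets into large ones (chr6:113424634-113435760, minus strand). Car3 encodes carbonic anhydrase 3, a cytosolic enzyme abundant in fat cells, liver and slow skeletal muscle (chr3:14863512-14872523, plus strand). All 7 are protein-coding, and the GENCODE exons of each overlapped no exon of another gene.

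Promoters are shown for Adipoq, for Plin1 and Cfd, whose levels followed it, and for Lep, whose level relative to Adipoq stood highest in TTP-A. RefSeq (GRCm38.p6) held a promoter for 6 of the 7 genes, all but Car3, as the 250 bases before and 50 after a start. Capitals mark matches on either strand to TTGCNNAA, a loose form of the palindrome bound by C/EBP factors, and to CCAAT. The windows are chr16:23146286-23146585 (plus strand) for Adipoq, chr7:79732727-79733026 (minus strand) for Plin1, chr6:29059971-29060270 (plus strand) for Lep and chr10:79890603-79890902 (plus strand) for Cfd. Each is printed 5′ to 3′ in the direction of its gene, and the windows of Retn and Cidec were searched but are not printed.
Adipoq: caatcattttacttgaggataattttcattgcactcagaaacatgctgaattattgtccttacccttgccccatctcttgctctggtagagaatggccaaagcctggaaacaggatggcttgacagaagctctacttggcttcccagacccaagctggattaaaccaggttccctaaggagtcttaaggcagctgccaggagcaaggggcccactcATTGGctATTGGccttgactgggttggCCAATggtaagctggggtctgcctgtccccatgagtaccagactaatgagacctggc
Plin1: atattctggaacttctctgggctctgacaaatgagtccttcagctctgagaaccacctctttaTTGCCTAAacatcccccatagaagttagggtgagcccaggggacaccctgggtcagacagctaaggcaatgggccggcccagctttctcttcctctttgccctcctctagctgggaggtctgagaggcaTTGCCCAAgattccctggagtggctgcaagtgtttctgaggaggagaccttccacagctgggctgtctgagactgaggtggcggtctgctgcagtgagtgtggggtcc
Lep: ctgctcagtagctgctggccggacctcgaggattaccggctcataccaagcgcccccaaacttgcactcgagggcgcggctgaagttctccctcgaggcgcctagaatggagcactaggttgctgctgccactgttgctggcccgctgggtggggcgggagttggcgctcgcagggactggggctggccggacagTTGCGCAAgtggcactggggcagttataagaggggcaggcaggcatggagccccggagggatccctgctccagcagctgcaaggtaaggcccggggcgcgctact
Cfd: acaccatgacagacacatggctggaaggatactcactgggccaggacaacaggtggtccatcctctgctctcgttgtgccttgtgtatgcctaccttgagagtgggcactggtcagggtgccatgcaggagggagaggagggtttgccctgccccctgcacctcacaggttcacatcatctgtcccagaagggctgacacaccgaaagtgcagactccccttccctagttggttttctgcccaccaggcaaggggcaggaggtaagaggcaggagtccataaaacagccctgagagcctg
TTGCGCAA, the full C/EBP palindrome and one form of TTGCNNAA, was found in the Lep window and in 0.183% of the 32851 promoters of the table. TTGCNNAA was in the windows of Lep and Plin1, in 1 of 2 windows of Cidec, and in 10.8% of all promoters. CCAAT was in the Adipoq window 3 times and in 37.4% of all promoters. None of the 6 genes held TATAAA (13.6% of all promoters), the direct repeat bound by PPAR with its partner RXR (0.0396%), the full palindrome of the glucocorticoid response element (0.00913%) or TGTTCT, the core of that palindrome (19.0%). All motifs were searched on both strands. These matches describe letters in short windows and say nothing of binding.

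The 7 transcripts were a small part of each library. Their summed share of counts ran from 0.00793% in TTP-A 3 to 0.0284% in TTP-S 4. Per kilobase of the longest GENCODE transcript, Cfd was the most abundant at a mean of 50.4 CPM per kb (18.2 to 95.1 over the 16 libraries), above Car3 in 13 libraries. Car3 followed at 41.6 CPM per kb and lay above Cidec in all 16. Cidec was at 16, Adipoq at 9.04, Plin1 at 2.90, Retn at 1.96 and Lep at 0.441 CPM per kb. Lep was read from 18 to 58 counts per library and Retn from 23 to 92, while Car3 had 681 to 2802, so the counting error was largest for the hormones leptin and resistin.

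**Figure D1:**
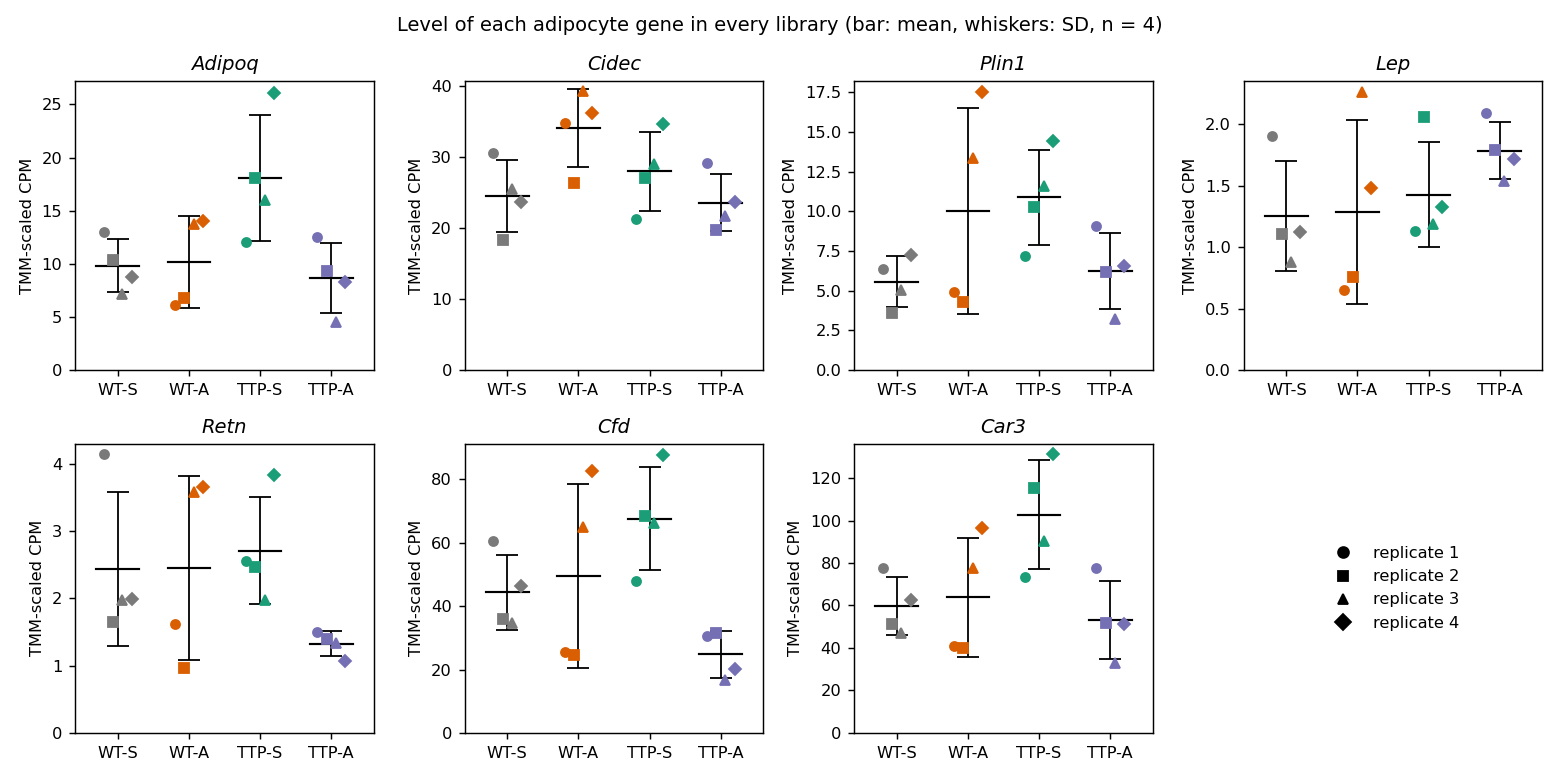
Level of each of the 7 genes in every library, in CPM on a linear axis from 0. Points are libraries, with a symbol for each replicate number, bars are group means and whiskers are the SD (n = 4). Adipoq, Car3 and Cfd share a mean lowest in TTP-A and highest in TTP-S, and WT-A replicates 3 and 4 lie above replicates 1 and 2 for every gene.

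Adipoq varied widely within groups. WT-S 1 to 4 held 13, 10.3, 7.17 and 8.75 CPM and WT-A 1 to 4 held 6.17, 6.76, 13.8 and 14 CPM. In TTPΔARE mice TTP-S 1 to 4 held 12, 18.1, 16 and 26.1 CPM and TTP-A 1 to 4 held 12.5, 9.32, 4.51 and 8.29 CPM. The lowest and the highest library were both from TTPΔARE mice and differed 5.78-fold. WT-A split into a low and a high pair with all of WT-S between them, and TTP-A reached into the range of TTP-S only with its replicate 1. Because the libraries are from bulk tissue, fewer fat cells and less RNA per fat cell cannot be told apart here or in the results below.

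Car3 followed Adipoq closely. WT-S held 77.6, 51.2, 47.1 and 62.5 CPM and WT-A held 40.9, 40.1, 77.6 and 96.7 CPM. TTP-S held 73.6, 115, 90.6 and 131 CPM and TTP-A held 77.4, 51.8, 32.7 and 51.2 CPM. The libraries that were high or low for Adipoq were high or low for Car3. Over the 16 libraries, the log2 ratio of Car3 to Adipoq counts stayed between 2.31 and 2.86 (mean 2.61 ± 0.16), although each gene alone spanned at least 4-fold.

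The same pattern was seen in part for the other genes. Over the 16 libraries, log2 CPM of Adipoq correlated with Car3 at Pearson r = 0.97 and Spearman rho = 0.97 (permutation p = 1e-05 for both, the smallest that 100000 resamples can give, 3e-05 for r after Benjamini-Hochberg adjustment over 6 relations). Cfd gave r = 0.88 and rho = 0.91 (permutation p = 1e-05 for both, adjusted p = 3e-05 for r). Plin1 gave r = 0.82 and rho = 0.84 (permutation p = 0.0001 and 8e-05, adjusted p = 0.0002 for r), and Retn gave r = 0.70 and rho = 0.71 (permutation p = 0.0028 and 0.0032, adjusted p = 0.0042 for r). These 4 relations kept an r of 0.96, 0.82, 0.74 and 0.63 without TTP-A 3 and TTP-S 4, the libraries farthest from the Adipoq median. With group means removed they were at 0.95, 0.89, 0.84 and 0.67.

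Over the 16 libraries as they stand, Lep and Cidec were tied to Adipoq less closely. Lep gave r = 0.44 and rho = 0.49 (permutation p = 0.092 and 0.055, adjusted p = 0.11 for r). Its r was 0.70 without TTP-A 3 and TTP-S 4 (adjusted permutation p = 0.0097) and 0.74 with group means removed. Both lay above the values of Retn, 0.63 and 0.67. Cidec gave r = 0.42 and rho = 0.44 (permutation p = 0.11 and 0.091, adjusted p = 0.11 for r), and 0.23 without the farthest pair. Within WT-A, the pair set apart by GC content was above WT-A 1 and 2 for all 7 genes. In the 14 other libraries, r was 0.98 for Car3, 0.89 for Cfd, 0.87 for Plin1, 0.69 for Retn, 0.40 for Lep and 0.36 for Cidec.

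**Figure D2:**
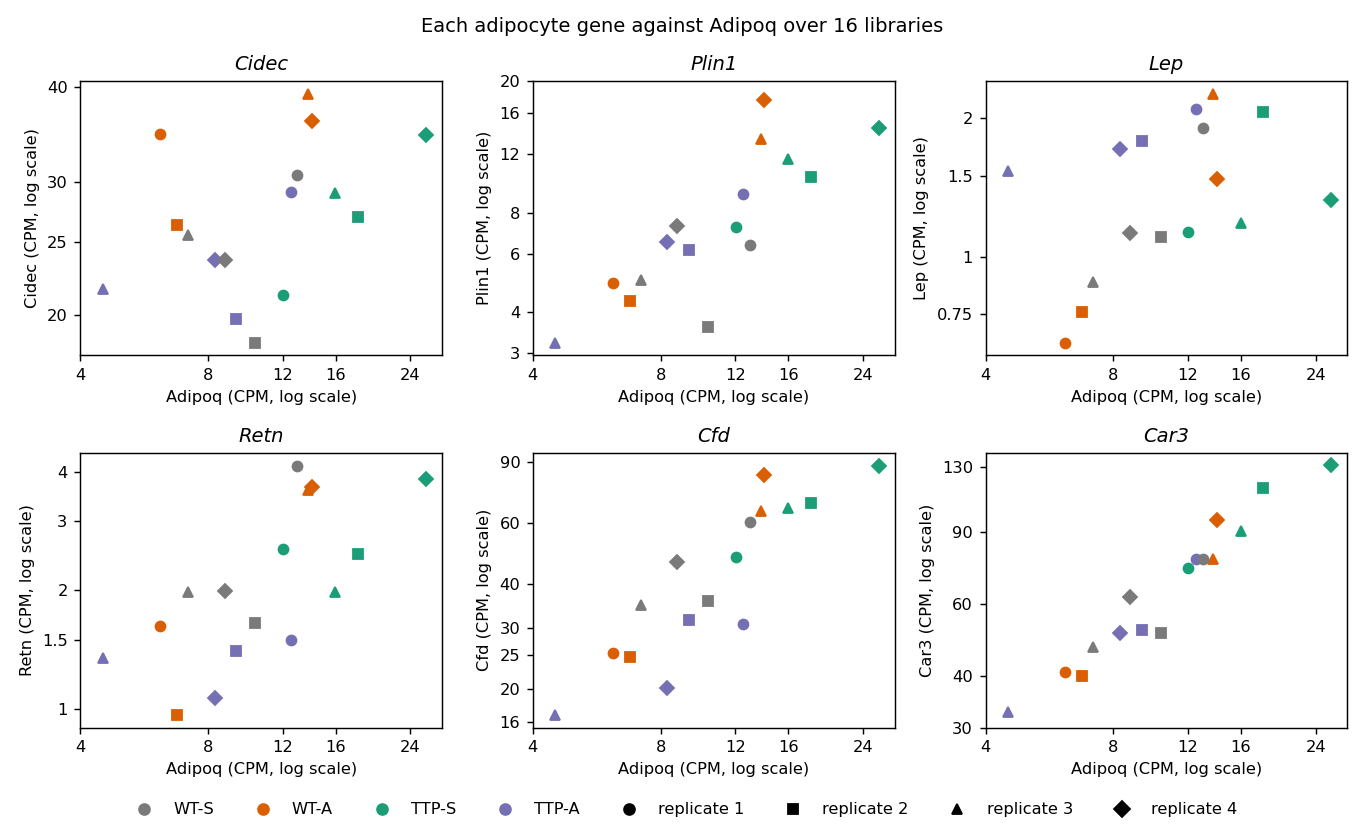
Level of each of the other 6 genes against Adipoq in the 16 libraries, both axes in CPM on a log scale, with a colour for each group and a symbol for each replicate number. Car3 lies along a line in all groups (r = 0.97), and Lep lies high in TTP-A for its Adipoq level.

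In wild-type mice, no difference between A and S passed the test for any of the 7 genes. The edgeR quasi-likelihood test called 0 of 7 at an adjusted p under 0.05, against 18.8% of all genes tested. At an unadjusted p under 0.05 there was 1, Cidec, beside 36.5% of all genes. Cidec was also the only one called by the DESeq2 Wald test (22.9% of all genes). Adipoq was at a log2 fold change of 0.05 ± 0.33 (SE, adjusted p = 0.922), Car3 at 0.10 ± 0.30 (adjusted p = 0.832) and Cfd at 0.16 ± 0.35 (adjusted p = 0.772). The median over the 7 genes was 0.10, and that over all genes was 0.009.

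Those values depended on the pair set apart by GC content. WT-A 3 and 4 lay above WT-A 1 and 2 by 1.10 log2 units for Adipoq and Car3, 1.28 for Lep, 1.47 for Retn, 1.55 for Cfd and 1.71 for Plin1. Genes of the same GC content shifted between the pairs by a median of −0.10 for the bin of Adipoq and Car3 and by 0.25 for the bin of Cfd. Cidec differed by 0.32, beside 0.22 for its bin. Without the pair, Adipoq was at −0.60 (adjusted p = 0.291), Car3 at −0.55 (adjusted p = 0.233), Retn at −0.90 (adjusted p = 0.133), Lep at −0.81 (adjusted p = 0.131) and Cfd at −0.82 (adjusted p = 0.0746), each from 2 WT-A libraries. The sign of these 5 genes and of Plin1 thus turned from higher to lower in WT-A, with 0 of 7 called (10.4% of all genes in that fit).

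Cidec, unlike the other 6 genes, had its highest group mean in WT-A. WT-S held 30.6, 18.4, 25.5 and 23.6 CPM and WT-A held 34.7, 26.3, 39.2 and 36.1 CPM. TTP-S held 21.2, 27.0, 29.0 and 34.6 CPM and TTP-A held 29.1, 19.8, 21.7 and 23.7 CPM. WT-A 1, 3 and 4 lay above all of WT-S, and WT-A 2 overlapped. The log2 fold change between WT-A and WT-S was 0.48 ± 0.17 (SE, adjusted p = 0.0612), and with the log2 CPM of Adipoq as a covariate it was 0.48 with an adjusted p of 0.0255. In that fit 11.8% of all genes were called higher. Without WT-A 3 and 4 the value was 0.32 (adjusted p = 0.336), and 0.50 with the covariate (adjusted p = 0.117).

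Plin1 ran from 3.6 to 7.27 CPM among WT-S libraries, 4.31 to 17.5 among WT-A, 7.21 to 14.4 among TTP-S and 3.22 to 9.08 among TTP-A. WT-A 3 and 4, at 13.4 and 17.5 CPM, made the upper part of the WT-A range. Its log2 fold change between A and S was 0.85 ± 0.41 in wild-type mice (SE, adjusted p = 0.148), and −0.26 without WT-A 3 and 4 (edgeR adjusted p = 0.684). In TTPΔARE mice the value was −0.79 ± 0.41 (SE, adjusted p = 0.374).

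In TTPΔARE mice, Cfd fell in A. TTP-S 1 to 4 held 47.9, 68.3, 66.3 and 87.7 CPM and TTP-A held 30.7, 31.5, 16.8 and 20.1 CPM. All libraries of TTP-A lay below all of TTP-S. In wild-type mice WT-S held 60.4, 35.9, 34.8 and 46.2 CPM and WT-A held 25.4, 24.7, 65.0 and 82.5 CPM, so that these groups overlapped. Cfd was 2.72-fold lower in A within TTPΔARE mice, a log2 fold change of −1.45 ± 0.36 (SE, edgeR adjusted p = 0.0417). It was the only one of the 7 called, where 1.35% of all genes were called lower and 2.9% in either direction. DESeq2 called it and Adipoq (5.61% of all genes). The call was close to the threshold. It held in 1 of 8 fits that left out 1 library of these groups, that without TTP-A 2 (adjusted p = 0.0289). It was lost in the other 7 fits, with the highest adjusted p of 0.139 without TTP-A 4, at a log2 fold change of −1.58 to −1.30 over all 8.

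The other 6 genes did not pass the test in TTPΔARE mice. For Retn, TTP-S held 2.55, 2.47, 1.98 and 3.84 CPM and TTP-A held 1.5, 1.40, 1.34 and 1.07 CPM, without overlap. Its log2 fold change was −1.02 ± 0.39 (SE, edgeR adjusted p = 0.192). With Cfd, 2 of the 7 genes were lower without overlap, against 6.77% of all genes. Such separation fixes the p of an exact two-sided permutation test of 4 against 4 libraries at 0.0286, the smallest it can give. That p therefore adds nothing to the lack of overlap. The same test, unadjusted, gave 0.0571 for Adipoq, Plin1 and Car3, 0.143 for Lep and 0.314 for Cidec. Adipoq was at −1.05 ± 0.33 (adjusted p = 0.0954) and Car3 at −0.95 ± 0.30 (adjusted p = 0.101), and both overlapped only through TTP-A 1. The median over the 7 genes was −0.95, against −0.001 over all genes. In the 14 libraries, whose spread no longer included WT-A 3 and 4, the same fold changes gave 3 calls (6.26% of all genes), Cfd (adjusted p = 0.00367), Car3 (0.0284) and Adipoq (0.0358).

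**Figure D3:**
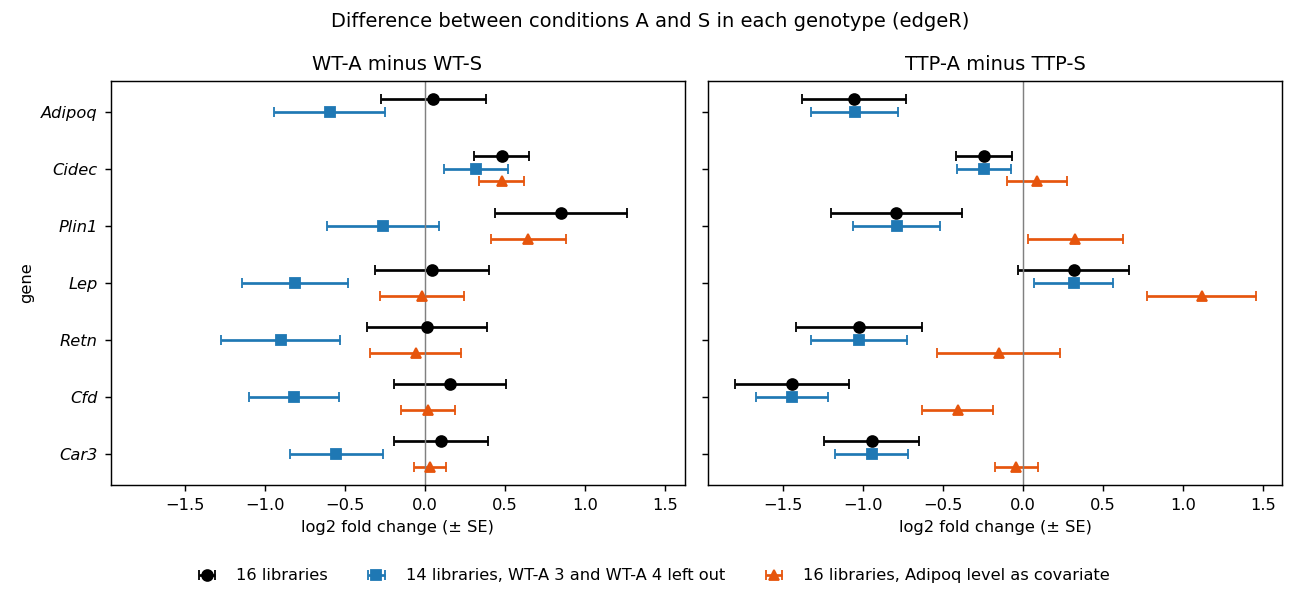
Log2 fold change (x axis) of each gene between A and S in wild-type mice (left) and TTPΔARE mice (right), with the SE as bars, from edgeR over 16 libraries (circles), over the 14 libraries (squares) and with Adipoq as a covariate (triangles, 6 genes). In TTPΔARE mice 6 of the 7 circles lie below 0, and in wild-type mice Adipoq moves from 0.05 to −0.60 without WT-A 3 and 4.

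Lep did not follow the other 6 genes in TTPΔARE mice. TTP-S held 1.13, 2.06, 1.19 and 1.33 CPM and TTP-A held 2.09, 1.79, 1.54 and 1.71 CPM. The groups overlapped through TTP-S 2. In wild-type mice WT-S held 1.90, 1.10, 0.88 and 1.13 CPM and WT-A held 0.65, 0.759, 2.26 and 1.48 CPM. The log2 fold change was 0.32 ± 0.35 in TTPΔARE mice (adjusted p = 0.763), the only value above 0 among the 7 genes.

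Set against Adipoq in the same library, leptin stood highest in TTP-A. The log2 ratio of Lep to Adipoq counts was −3.00 ± 0.19 for WT-S, −3.06 ± 0.31 for WT-A, −3.65 ± 0.50 for TTP-S and −2.20 ± 0.45 for TTP-A, each as mean ± SD of 4 libraries. The 4 libraries of TTP-A lay between −2.58 and −1.55, above all 12 libraries of the other groups, of which the highest was WT-A 3 at −2.61. The gap between TTP-A 1 and WT-A 3 was narrow and rested on 46 and 58 counts of Lep. Adipoq itself had its lowest group mean in TTP-A, which raises any ratio to it there. The share of all genes whose ratio to Adipoq separated in this way was not computed. With the log2 CPM of Adipoq as a covariate, the A minus S difference of Lep in TTPΔARE mice was 1.12 log2 units (SE 0.34), with an edgeR adjusted p of 0.107 that did not pass. The difference of TTP-A from WT-A for Lep was 0.48 log2 units in the 16 libraries (adjusted p = 0.372), or 0.74 with the covariate (0.105), and 1.33 in the 14 libraries (0.0532). None of these passed the test, and all rest on the low counts of Lep.

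The other ratios to Adipoq had smaller differences between their lowest and highest group means. Cfd to Adipoq was at 2.17 ± 0.26 for WT-S, 2.17 ± 0.30 for WT-A, 1.93 ± 0.13 for TTP-S and 1.56 ± 0.32 for TTP-A on the log2 scale. With Adipoq as a covariate Cfd was at −0.41 in TTP-A against TTP-S (adjusted p = 0.319), and between TTP-A and WT-A it was called lower at −0.65 (adjusted p = 0.047, with 2.16% of all genes called lower in that fit). That call was lost without WT-A 3 and 4, where the value was −0.29 with the covariate (adjusted p = 0.318). Cidec to Adipoq was lowest in TTP-S, at 0.67 ± 0.21, beside 1.33 ± 0.42 in WT-S, 1.83 ± 0.51 in WT-A and 1.52 ± 0.53 in TTP-A. With the covariate, 0 of the 6 genes other than Adipoq were called between TTP-A and TTP-S, where 0.312% of all genes were called higher and 0.26% lower. Car3, at −0.04 in that fit (adjusted p = 0.889), had the smallest absolute value. Without the covariate Adipoq was itself at −1.05 between TTP-A and TTP-S, so the covariate takes up part of that group difference.

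**Figure D4:**
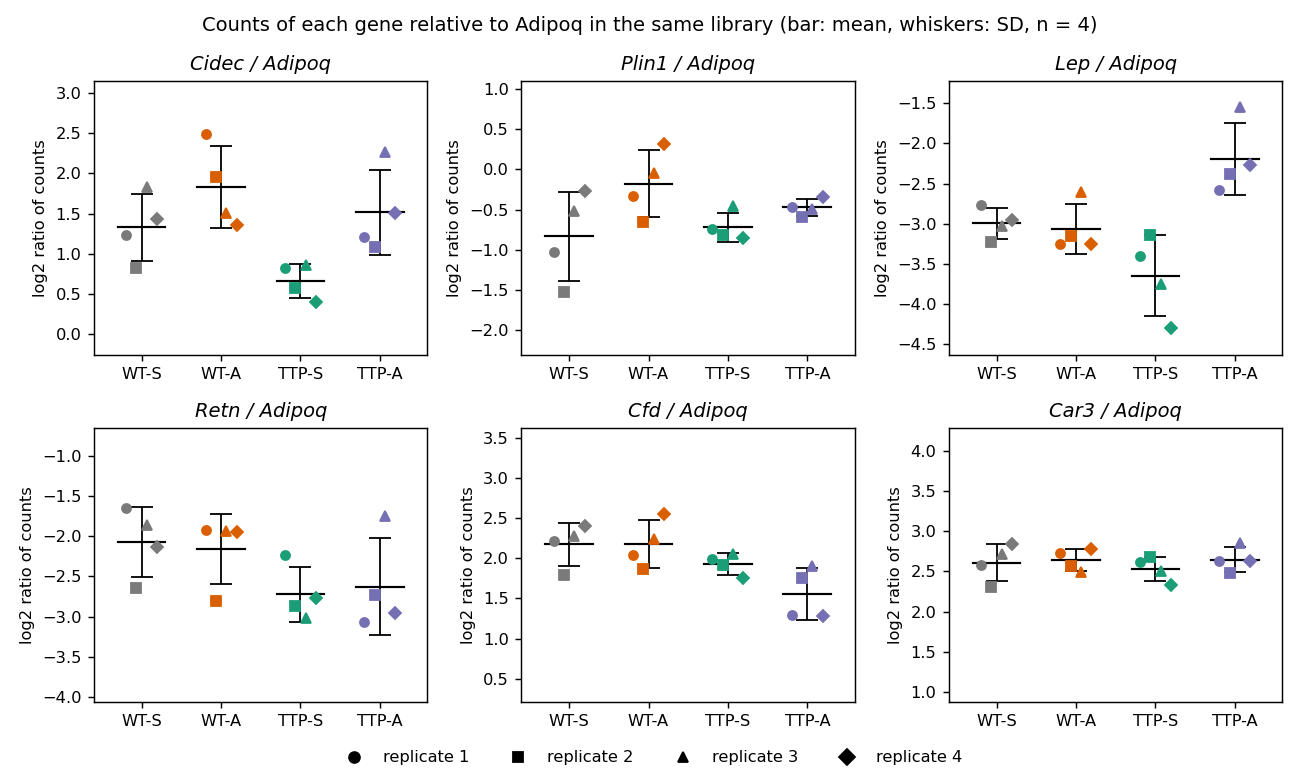
Log2 ratio of the counts of each of the other 6 genes to those of Adipoq in the same library. Points are libraries, bars are group means and whiskers are the SD (n = 4). Car3 stays between 2.31 and 2.86 in all libraries. Lep in TTP-A lies above every other library, though only narrowly above WT-A 3, at −2.61.

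Between genotypes within a condition, no member was called in the edgeR fit over 16 libraries without a covariate. All 7 genes had positive values for TTP-S against WT-S, at 0.88 ± 0.33 log2 units for Adipoq (adjusted p = 0.498), 0.97 for Plin1 (0.605) and 0.79 for Car3 (0.511), with overlap for each. In that comparison 0.0325% of all genes were called, and 3 members and 7.49% of all genes had an unadjusted p under 0.05. Between TTP-A and WT-A 5.17% of all genes were called, and the members closest to the threshold were Cidec at −0.53 (adjusted p = 0.0736) and Cfd at −0.99 (adjusted p = 0.097). There 3 members and 27.5% of all genes had an unadjusted p under 0.05. Without WT-A 3 and 4, Cfd was at −0.01 (adjusted p = 0.988) and Cidec at −0.37 (adjusted p = 0.329), with 0 of 7 called (1.87% of all genes). The DESeq2 Wald test called 0 members between TTP-S and WT-S (0.663% of all genes) and 1, Cidec, between TTP-A and WT-A (11.5%).

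The response to A was not shown to differ between the genotypes for any of the 7 genes. The interaction, the A minus S difference in TTPΔARE mice less that in wild-type mice, was −1.64 for Plin1 (adjusted p = 0.225), −1.60 for Cfd (0.179), −1.11 for Adipoq (0.29) and −1.04 for Car3 (0.27), and edgeR called 0 of 7 with 0.0585% of all genes called. At an unadjusted p under 0.05 there were 5 members and 15.2% of all genes, and DESeq2 called 0 (1.81% of all genes). Without WT-A 3 and 4, the interaction was −0.53 for Plin1 (adjusted p = 0.663), −0.625 for Cfd (0.467), −0.46 for Adipoq (0.713) and −0.39 for Car3 (0.701), while Lep went from 0.27 to 1.13 (0.262). In that fit edgeR also called 0 of 7 (0.295% of all genes). Averaged over both genotypes, A minus S called 0 of 7 (18.9% of all genes), with an unadjusted p under 0.05 for 2 members and 33.8% of all genes, and 0 called by DESeq2 (21.8%). Cfd was at −0.65 (adjusted p = 0.0789) and Adipoq at −0.50 (adjusted p = 0.139). In the 14 libraries the same average called 4 members lower, Cfd at −1.13 (adjusted p = 0.00133), Retn at −0.96 (0.0122), Car3 at −0.75 (0.012) and Adipoq at −0.82 (0.0184), where 19.5% of all genes were called in either direction.

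Other genes of fat-cell biology were read from 5 lists of 56 genes, all of them tested. The lists held genes of lipolysis and the droplet, of lipid uptake and synthesis, adipogenic transcription factors, receptors and signalling genes, and other genes enriched in fat cells. Many of them are also active in stomach epithelium, muscle or vessels. In TTPΔARE mice, 10 of the 56 fell in A and 0 rose (17.9% called), where 1.35% of all genes fell and 1.55% rose. The median of the 56 was −0.32, and 46 had a value below 0. In wild-type mice, 6 rose and 9 fell (26.8%), where 9.8% of all genes rose and 8.99% fell, and the median was −0.06. Between TTP-S and WT-S edgeR called 0 of 56, with 15 at an unadjusted p under 0.05 (7.49% of all genes), and DESeq2 called 3 (0.663% of all genes).

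Of the 10 genes that fell in TTP-A, 6 were from the list of lipid uptake and synthesis. Fabp4, the fatty acid binding protein of fat cells and capillary endothelium, fell from 147 ± 25 to 91.4 ± 12.3 CPM, a log2 fold change of −0.68 ± 0.14 (SE, adjusted p = 0.0208). Elovl6, a fatty acid elongase, was at −0.52 (adjusted p = 0.0139), Acaca, which makes malonyl-CoA, at −0.49 (0.0452), and Dgat2, which makes triglyceride, at −0.55 (0.0479). Plin4, a perilipin of small droplets, was at −0.60 (0.0446). Cyp2e1, a cytochrome P450 of liver and fat, went from 14.4 ± 4.95 CPM to 4.33 ± 1.86 CPM (log2 fold change −1.73, adjusted p = 0.0136). Of the transcription factors, Cebpd (−0.80, adjusted p = 0.0179) and Klf15 (−0.54, 0.0302), both induced by glucocorticoids, fell, while Pparg, the master regulator of fat cells, had 54.8 ± 5.77 CPM for TTP-S and 57.5 ± 1.2 CPM for TTP-A (log2 fold change 0.07, adjusted p = 0.77). Pck1, the enzyme of glyceroneogenesis, was named after its value was seen, and fell from 6.86 ± 4.24 to 1.25 ± 1.10 CPM (−2.44, adjusted p = 0.0485).

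This count moved with single libraries, as did the share of all genes called lower. The number of the 56 genes called lower was 0 without TTP-A 4, 1 without TTP-S 2, 1 without TTP-S 4, 2 without TTP-A 1, 4 without TTP-A 3, 5 without TTP-S 3, 8 without TTP-S 1 and 14 without TTP-A 2. The share of all genes called lower ran from 0.264% to 2.85% over the 8 fits that left out 1 of these libraries. In the 14 libraries 19 of the 56 were called lower, where 3.1% of all genes were, and 1 higher, Ptger3 (0.37, adjusted p = 0.0309). With Adipoq as a covariate, edgeR called 0 of the 56 in TTPΔARE mice, where 0.26% of all genes were called lower and 0.312% higher. At an unadjusted p under 0.05 there were 17 (19.8% of all genes), and the median went from −0.32 to −0.08. Adipoq itself was at −1.05 between these groups, so the covariate takes up part of the group difference. What the shift reflects was not tested.

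In wild-type mice the genes called went in different directions. Lpl and Cd36, which bring fatty acids into cells, fell in A, Lpl from 320 ± 66.2 to 185 ± 16.8 CPM (log2 fold change −0.79, adjusted p = 0.00347) and Cd36 from 167 ± 33.7 to 91.8 ± 15.0 CPM (−0.86, 0.00202). Klf15 (−0.66, adjusted p = 0.00399), Acvr1c, a receptor of the activin family (−1.03, 0.00347), and Pde3b, the phosphodiesterase by which insulin restrains lipolysis (−0.75, 0.00645), also fell. Genes that rose were Agpat2, an enzyme of triglyceride synthesis (0.58, 0.00466), Cidea, a relative of Cidec (0.96, 0.0254), Cebpb (0.48, 0.00815), Cebpa (0.66, 0.02), Ptger3 (0.58, 0.0107) and Plin2 (0.30, 0.0469). Without WT-A 3 and 4, Lpl was at −0.69 (adjusted p = 0.028), Cd36 at −0.69 (0.0149), Klf15 at −0.86 (0.00282) and Cidea at 1.2 (0.0243), while Cebpa (0.132) and Plin2 (0.211) were no longer called. In that fit 4 of the 56 genes rose and 16 fell, where 4.64% of all genes rose and 5.75% fell. In fits that left out 1 library, the number that rose was lowest at 3, without WT-A 3 (4.29% of all genes), without WT-S 2 (4.46%) and without WT-S 4 (5.72%), and highest at 9 without WT-A 1 (14.6%). The number that fell was 7 to 10 over the 8 fits, where 3.65% to 17.6% of all genes fell. Of the 4 receptors for adipokines that were read, edgeR called 0 in the A minus S comparison of either genotype, with 0 at an unadjusted p under 0.05. Over all genes, 18.8% were called in wild-type mice and 2.9% in TTPΔARE mice, and 36.5% and 15.9% had an unadjusted p under 0.05.

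The glucocorticoid-responsive genes were set beside the fat genes in the same libraries. Per1, a clock gene with a glucocorticoid response element, fell in wild-type A from 96.1 ± 13.8 to 29.9 ± 4.00 CPM (log2 fold change −1.69, adjusted p = 6.05e-06). In TTPΔARE mice it fell from 108 ± 18.0 to 36.1 ± 1.31 CPM (−1.58, adjusted p = 1.51e-05). Fkbp5, a chaperone partner of the glucocorticoid receptor, fell by 0.73 (adjusted p = 0.0105) and by 1.41 (adjusted p = 0.000466) on the log2 scale. Of the 12 genes of this list, 7 fell and 2 rose in wild-type mice, where 8.99% of all genes fell and 9.8% rose. In TTPΔARE mice 7 fell and 0 rose, where 1.35% of all genes fell and 1.55% rose. In wild-type mice 5 were called lower and 0 higher without WT-S replicate 2 (3.65% and 4.46% of all genes), and 5 lower and 2 higher without WT-A 3 and 4 (5.75% and 4.64%). With Adipoq as a covariate, 7 were called lower in wild-type mice (14% of all genes) and 6 in TTPΔARE mice (0.26%). These 6 included Per1, Zbtb16, Fkbp5 and Tsc22d3, and Per1 was at −1.5 (adjusted p = 0.00245).

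Transcripts of other tissues that border the stomach were also read. Of the 7 mesothelium genes, Krt19, which gastric epithelium also expresses, and Gpm6a made nearly all of the summed level, with means of 1970 and 68.2 CPM. The other 5, Msln, Upk3b, Upk1b, Wt1 and Lrrn4, summed to 0.973 to 1.62 CPM for WT-S, 1.1 to 5.2 for WT-A, 1.34 to 4.52 for TTP-S and 2.22 to 3 for TTP-A. Lrrn4 (log2 fold change 2.58, adjusted p = 0.0112) and Upk3b (1.75, 0.0481) were called higher in WT-A against WT-S, and without WT-A 3 and 4 Lrrn4 alone of the list was called (2.81, 0.0224). Smooth muscle genes summed to 7170 to 8080 CPM for WT-S, 8370 to 10100 for WT-A, 6250 to 8730 for TTP-S and 6780 to 8110 for TTP-A, and 5 of 9 rose in WT-A, where 9.8% of all genes rose. Without WT-A 3 and 4, 1 of the 9 was called, Actg2 (adjusted p = 0.025). In TTPΔARE mice 0 of 9 smooth muscle, 0 of 6 mesothelium and 0 of 7 macrophage genes were called by edgeR between A and S, the comparison in which Cfd fell, with 1, 0 and 2 of them at an unadjusted p under 0.05 (15.9% of all genes). There 1 of 5 tested skeletal muscle genes, Acta1, was called higher (log2 fold change 2.0, adjusted p = 0.0499) and 1 of 3 tested exocrine pancreas genes, Cela1, lower (−0.46, 0.0352), where 2.9% of all genes were called. Skeletal muscle genes, read because muscle contains Car3, were at 14 to 33.6 CPM in sum, with Myh4 at 0 counts in all libraries. Macrophage genes summed to 109 to 140 CPM for WT-S, 130 to 203 for WT-A, 97.0 to 135 for TTP-S and 130 to 157 for TTP-A. In WT-A against WT-S 3 of 7 macrophage genes and 2 of 5 skeletal muscle genes were called higher (9.8% of all genes), and 1 and 0 without WT-A 3 and 4 (4.64%). Lymphocyte genes summed to 3.98 to 6.44 CPM for TTP-S and 6.53 to 8.18 for TTP-A, without overlap at these low levels. Endothelium genes summed to 212 to 236 CPM for WT-S, 212 to 287 for WT-A, 221 to 244 for TTP-S and 260 to 278 for TTP-A, so that the TTP groups did not overlap here either. All 5 endothelium genes had values above 0 in TTP-A against TTP-S. There edgeR called 0 of 5 in the 16 libraries, with 2 at an unadjusted p under 0.05, and 2 of 5 higher in the 14 libraries (3.17% of all genes), Pecam1 (0.24, adjusted p = 0.0264) and Cdh5 (0.29, 0.00821). In wild-type mice 3 of 5 endothelium genes were called higher (9.8% of all genes). Without WT-A 3 and 4, 0 were called higher (4.64% of all genes) and 1 lower (5.75%), Kdr (−0.37, adjusted p = 0.0475). Of the brown fat, liver and lymphocyte genes, 0 of 5, 0 of 5 and 0 of 2 tested were called between A and S in either genotype. Over all genes, 18.8% were called in wild-type mice and 2.9% in TTPΔARE mice. At an unadjusted p under 0.05 there were 2, 2 and 0 in wild-type mice (36.5% of all genes). In TTPΔARE mice there were 1, 0 and 1 (15.9%). The liver gene Ttr was called lower in wild-type mice without WT-A 3 and 4 (−1.19, adjusted p = 0.008). Squamous genes of the forestomach summed to between 3.65 and 1960 CPM, with WT-A 2 the highest. In WT-A 1 of 9 tested was called higher (9.8% of all genes), or 2 of 10 without WT-A 3 and 4 (4.64%). The part of these tissues in the values of the 7 genes was not tested.

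The genes whose level over the 16 libraries was most like the mean of the 7, with group means removed, were ranked by Pearson r of log2 CPM. Slc7a10, an amino acid transporter of the surface of white fat cells, came first with r = 0.954 at 1.0 to 3.08 CPM. Psen2 (0.925), Acaca (0.919), Mlxipl (0.914), which encodes the lipogenic factor ChREBP, and Gpr108 (0.905) followed, then Zbtb22, Galnt2, Hsd3b7, Sec31a and Creb3 (0.905 to 0.899). Each of the 7 genes was set against the mean of the other 6, which leaves out the gene itself, and r was highest for Car3 (0.956) and Cfd (0.954) and lowest for Cidec (0.671). Without WT-A 3 and 4, Car3 (0.95) and Cfd (0.907) were again highest, while Retn (0.566) and Lep (0.607) were lowest and Cidec was at 0.705. Among all tested genes, by likeness to the mean of the 7 themselves, Cfd ranked 1, Car3 2, Plin1 4, Adipoq 8, Retn 39, Lep 67 and Cidec 474. In the 14 libraries without WT-A 3 and 4, Nkx6-2 (0.932) and Ampd3 (0.919), neither on a fat-cell list, came first. Slc7a10 (0.89) was at rank 3 there, and 1 of the 10 genes ranked above, Slc7a10, remained among the first 10. These likenesses are descriptions, over libraries that share their depth and their biopsy with the 7 genes.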

How the data were processed

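Biopsy RNA of 16 mouse samples (4 in each group, by sample title) was made into TruSeq libraries, per the labels' protocols. The deposited table holds the authors' integer counts by gene symbol. The submitters' processing notes name STAR 2.7.0f, featureCounts of Subread 1.6.4, DESeq2 and the build mm10, which is GRCm38. The annotation, strand setting and filters are not given in the sources used here.

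These counts went unchanged into edgeR 4.0.16 (R 4.3.3), with filterByExpr, TMM scaling, a quasi-likelihood fit over 16 libraries and Benjamini-Hochberg adjustment over 15385 genes. A gene with an adjusted p under 0.05 is referred to as called. CPM used TMM-scaled totals, and log2 CPM a prior count of 2. Without molecular identifiers, the depth gives counting error only. A second fit took the log2 CPM of Adipoq as a covariate. Exact permutation tests used all 70 splits of 4 against 4 libraries. The fit was tested on simulated data. Alternatives were DESeq2 1.42.0 (size factors, Wald test), no filter, a replicate block, only the groups compared, and each library left out. GC offsets, likeness in 14 libraries and the covariate in 14 libraries were chosen after seeing the data. The 24 pairs of libraries within groups all differed beyond sampling noise (chi-square per degree of freedom 4.69 to 89.5).

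The 7 genes and all lists were chosen with earlier results of these data known. All 7 genes were described. Other lists could name up to 4 called genes by smallest adjusted p, and up to 2 abundant genes not called, in a comparison. Likeness named 10 genes, with Nkx6-2 and Ampd3 added from the 14 libraries.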

Additional observations from a re-analysis of the deposited data

Results flagged for a closer look

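Of 52 groups of 4 libraries checked for a library far from the others, 3 held one, where chance alone gives about 1 in 20. Retn was at 4.14 CPM in WT-S 1, far above WT-S 2, 3 and 4 (1.65, 1.98 and 2.0 CPM). The log2 ratio of Lep to Adipoq counts was −2.61 in WT-A 3, above the rest of WT-A. The log2 ratio of Retn to Adipoq counts was −2.81 in WT-A 2, below the rest of WT-A. Each rests on low counts of Retn or Lep.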

How the results depend on the processing

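The number of the 7 genes called depended on the fit. Between WT-A and WT-S it was 0, and 1 (Cidec) with the replicate block (18.5% of all genes), with Adipoq as a covariate and with the DESeq2 Wald test, and 0 to 1 with a library left out, the 1 without WT-A 2 (10.3% of all genes higher) and without WT-S 1 (1623 of 15519 genes). Between TTP-A and TTP-S it was 1, and 0 with the replicate block (Cfd −1.40, adjusted p = 0.0649, 2.78% of all genes), 0 with the covariate, 2 with the Wald test, 3 in the 14 libraries and 4 with only the groups compared (8.05% of all genes), and 0 to 1 with a library left out. For the average of A minus S it was 0, and 4 in the 14 libraries, 1 with GC offsets (20.3% of all genes) and 0 to 1 with a library left out, the 1 without WT-A 4 (8.85% lower). Between TTP-A and WT-A it was 0, and 1 with the covariate, 1 with the Wald test and 0 to 3 with a library left out, 1 lower without WT-A 1 (7.65% of all genes lower) and 3 lower without WT-A 2 (4.11%). It was 0 in every fit run for TTP-S against WT-S and for the interaction. DESeq2 size factors and the fit without a filter gave the same counts of members as the first fit in all 6 comparisons. The block changed no other count. Same-numbered libraries correlated at −0.43 to 0.444 over 24 pairs, with 5 over 0.1, so that the numbers do not pair them. Adipoq with Lep gave r = 0.70 without the farthest pair and 0.74 with group means removed.

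Signs turned as follows, in log2 units. For WT-A against WT-S in the 14 libraries, Adipoq was −0.596, Plin1 −0.263, Lep −0.811, Retn −0.902, Cfd −0.821 and Car3 −0.554. With the covariate Lep was −0.019 and Retn −0.06, with the block Retn −0.023, and with GC offsets Cfd −0.057. With the covariate in the 14 libraries Lep was −0.535, Retn −0.608, Cfd −0.404 and Car3 −0.097 there, with 0 of 6 called (4.77% of all genes higher and 5.67% lower). In that fit Plin1 was 0.11 and Car3 0.075 for TTP-A against WT-A, with 0 of 6 called (2.16% higher and 1.01% lower). For WT-A against WT-S, leaving out a library gave −0.141 to 0.231 for Adipoq, −0.383 to 0.302 for Lep, −0.242 to 0.378 for Retn, −0.21 to 0.379 for Cfd and −0.172 to 0.268 for Car3. For TTP-A against TTP-S with the covariate, Cidec was 0.089 and Plin1 0.325. For the average, Plin1 was −0.527 and Lep −0.247 in the 14 libraries, Plin1 was −0.084 with GC offsets, and leaving out a library gave −0.177 to 0.155 for Plin1 and −0.033 to 0.309 for Lep. For TTP-S against WT-S with the covariate, Cidec was −0.078, Plin1 −0.008, Lep −0.398, Retn −0.49 and Cfd −0.221, and leaving out a library gave −0.032 to 0.465 for Lep and −0.051 to 0.528 for Retn. For TTP-A against WT-A in the 14 libraries, Adipoq was 0.424, Plin1 0.443, Retn 0.038 and Car3 0.397, and leaving out a library gave −0.494 to 0.014 for Car3. The cause of these shifts was not tested. With the block, 5 of the 56 genes of the other lists were called lower and 1 higher in TTP-A, where 1.29% of all genes were lower and 1.49% higher, beside 15 lower with GC offsets (2.51%) and 26 lower with only the groups compared (3.89%). For wild-type mice the last fit called 1 higher (2.65%) and 5 lower (1.84%).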
